A study of Mus musculus with 12 samples.

Results

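Polycomb group genes encode chromatin regulators, and 33 of them were followed across 4 groups of mouse embryonic stem cells. The members were chosen by symbol and by no cutoff on measured values, although earlier results of these data were known. They comprise every non-control probe whose RefSeq transcript maps to one of the 33 symbols. They are 33 of the 24463 genes tested, and 47 of their 49 probes passed the filter on dim probes. The probe that stood for each gene was well above background on all 12 arrays for all 33 members. By role, 11 members belong to Polycomb repressive complex 2 (PRC2; 6 core and 5 accessory), 20 to Polycomb repressive complex 1 (PRC1; 8 RING and PCGF, 8 canonical and 4 variant) and 2 are demethylases.

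Total RNA was hybridised to 12 single-colour (Cy3) microarrays, 3 for each of 4 groups. Mutant (Nat1-null) cells were grown in 2i+LIF or in LIF, and wild-type cells in the same media. All cells were an embryonic stem cell line kept in the usual medium on gelatin-coated plastic, and LIF, a cytokine that signals through STAT3, was present in every group. The medium 2i adds inhibitors of the kinases MEK and GSK3. Nat1 is read here as an earlier symbol of Eif4g2 (also DAP5), a translation factor related to eIF4G. The labels give neither the number of mutant clones nor the type of null allele, the doses, the time in 2i or whether replicates were separate cultures, so p-values measure only the spread between these samples.

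PRC2 methylates lysine 27 of histone H3 through Ezh1 or Ezh2, and PRC1 ubiquitinates histone H2A through Ring1 or Rnf2. Canonical PRC1 holds a CBX protein that binds the PRC2 mark and a PHC protein that helps to compact chromatin, whereas variant PRC1 holds Rybp or Yaf2 in place of CBX and is brought to CpG islands without that mark. In embryonic stem cells these complexes are known for keeping developmental genes silent but ready for use. Kdm6a and Kdm6b remove the PRC2 mark.

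Levels are log2 processed signals relative to the 75th percentile of their own array, so a level of 0 is that percentile. They are compared between groups for the same probe and never between probes. Between 49.84% and 66.26% of 59305 gene spots per array were well above background. Replicate SDs of members had medians of 0.13 in Nat1-null 2i+LIF cells, 0.17 in Nat1-null LIF cells, 0.06 in wild-type 2i+LIF cells and 0.05 in wild-type LIF cells, and the highest was 0.52 for Cbx8 in Nat1-null LIF cells. Eif4g2 averaged 1.31 ± 0.10 in Nat1-null 2i+LIF cells, 1.28 ± 0.04 in Nat1-null LIF cells, 4.2 ± 0.10 in wild-type 2i+LIF cells and 4.49 ± 0.05 in wild-type LIF cells (SD, n = 3 each). Slides followed the design. One carried every Nat1-null array, another the wild-type arrays of 2i+LIF and the last those of LIF. Slide cannot be told apart from genotype, nor from medium among wild-type samples, which leaves the medium comparison in mutant cells as the single one made within a slide.

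The stem cell identity of the samples and the presence of other cells were read from marker lists. All 12 of 12 stem cell markers (Pou5f1, Sox2, Nanog and others) were well above background in each group. Their summed signal, in multiples of the array's 75th percentile, was 884 to 978 in Nat1-null 2i+LIF cells, 904 to 1055 in Nat1-null LIF cells, 903 to 986 in wild-type 2i+LIF cells and 566 to 588 in wild-type LIF cells. Fibroblast or feeder markers exceeded background throughout a group for 6, 7, 8 and 11 of 11 genes in the same order of groups, with sums of 192 to 205, 120 to 138, 165 to 175 and 407 to 431. Trophoblast markers were so for 6, 4, 5 and 7 of 7 genes, with sums of 29.6 to 31.8, 10.66 to 12, 23.9 to 26.2 and 177 to 201. Neural markers were so for 4, 5, 6 and 7 of 7 genes, with sums of 2.85 to 3.28, 5.8 to 7.65, 9.33 to 10.4 and 27.9 to 28.9. Primitive endoderm markers were so for 4, 5, 6 and 8 of 8 genes, with sums of 24.1 to 37.6, 29 to 41.7, 18.1 to 19.3 and 13.3 to 15.1. These counts cover tested genes, which were 11 of 12 listed fibroblast or feeder markers, 7 of 9 trophoblast markers and all of the other lists. A gene was tested if it exceeded background throughout any group, so it could enter through the group where it was high. Counts and calls on these lists are thus not independent of that filter. Against wild-type LIF cells, 9 of 11 fibroblast or feeder markers were lower in wild-type 2i+LIF cells, with a median log2 difference of -4.59. In Nat1-null LIF cells 10 of 11 were (median -4.44, both by limma at adjusted p below 0.05). Acta2 differed by -8.06 and -9.62 and Col1a2 by -7.61 and -9.48, in that order of groups. Only Fn1 was higher by that test (1.17 and 0.89), with levels of 6.96 and 6.69, so sums that include it understate these falls. In these bulk samples fewer cells of a type and less RNA per cell cannot be told apart, and the part of other cells in the Polycomb differences was not tested.

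The promoters of 4 members are shown, chosen after their values were seen, because mean levels of Cbx6 and Rbbp4 were higher, and those of Rbbp7 and Phc2 lower, in the other 3 groups than in wild-type LIF cells. Other members not shown had the same directions. Of these, Mtf2 and Ezh2 (higher) and Scmh1 and Bcor (lower) have no CACGTG in their windows, whereas Pcgf2 and Phc3 (higher) and Bmi1 (lower) have it. A link between this motif and the levels was not tested. The windows run from 250 bases before to 50 bases after a RefSeq start site of build GRCm38.p6, read along the gene's strand, and capitals mark an E-box (CACGTG, the motif of Myc and related factors). Phc2 has 3 annotated windows, of which the one with this motif is printed, and the Rbbp7 window holds no such motif.
Cbx6 (chr15:79834284-79834583, minus strand): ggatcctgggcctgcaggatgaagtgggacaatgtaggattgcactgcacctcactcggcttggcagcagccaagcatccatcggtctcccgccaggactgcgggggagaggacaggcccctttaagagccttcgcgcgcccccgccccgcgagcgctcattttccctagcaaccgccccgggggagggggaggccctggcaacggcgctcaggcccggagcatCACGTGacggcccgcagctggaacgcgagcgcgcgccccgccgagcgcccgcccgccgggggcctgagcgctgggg
Rbbp4 (chr4:129335321-129335620, minus strand): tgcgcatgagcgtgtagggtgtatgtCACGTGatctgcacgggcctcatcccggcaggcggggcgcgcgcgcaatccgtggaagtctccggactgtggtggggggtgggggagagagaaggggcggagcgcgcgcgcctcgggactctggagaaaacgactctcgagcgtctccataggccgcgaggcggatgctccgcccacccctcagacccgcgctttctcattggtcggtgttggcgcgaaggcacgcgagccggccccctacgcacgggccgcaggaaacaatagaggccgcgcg
Rbbp7 (chrX:162760122-162760421, plus strand): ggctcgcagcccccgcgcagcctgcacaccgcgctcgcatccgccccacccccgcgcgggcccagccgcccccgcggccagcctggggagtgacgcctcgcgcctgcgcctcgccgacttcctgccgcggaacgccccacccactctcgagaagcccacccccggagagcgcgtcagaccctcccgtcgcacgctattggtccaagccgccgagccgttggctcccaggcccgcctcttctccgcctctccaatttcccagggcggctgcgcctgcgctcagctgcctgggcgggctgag
Phc2 (chr4:128654452-128654751, plus strand): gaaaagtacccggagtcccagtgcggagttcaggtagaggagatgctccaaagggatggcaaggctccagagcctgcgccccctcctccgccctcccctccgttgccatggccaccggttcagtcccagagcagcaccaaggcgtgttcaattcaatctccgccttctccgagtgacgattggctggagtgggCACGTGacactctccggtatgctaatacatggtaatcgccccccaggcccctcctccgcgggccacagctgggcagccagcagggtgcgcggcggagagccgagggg

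RefSeq promoter windows were found for 28 of the 33 members, 41 windows in all. On either strand, CACGTG stood in 8 of the 41 member windows (19.5%) and in 7.15% of all 32851 windows. The 8 belong to Bmi1, Cbx6, Cbx8, Kdm6a, Pcgf2, Phc2, Phc3 and Rbbp4. The ETS motif CCGGAAG stood in 2.44% of member windows and 8.86% of all windows, the E2F motif GGCGGGAA in 4.88% and 2.19%, the TCF motif CTTTGAT in 2.44% and 3.73%, the STAT motif TTCNNNGAA in 9.76% and 8.3%, and TATAAA in 2.44% and 13.6%. Member windows held a median of 23 CpG dinucleotides, ranging from 0 to 54, and all windows held a median of 7. These shares describe letters in the windows and no factor's binding was measured.

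**Figure D1:**
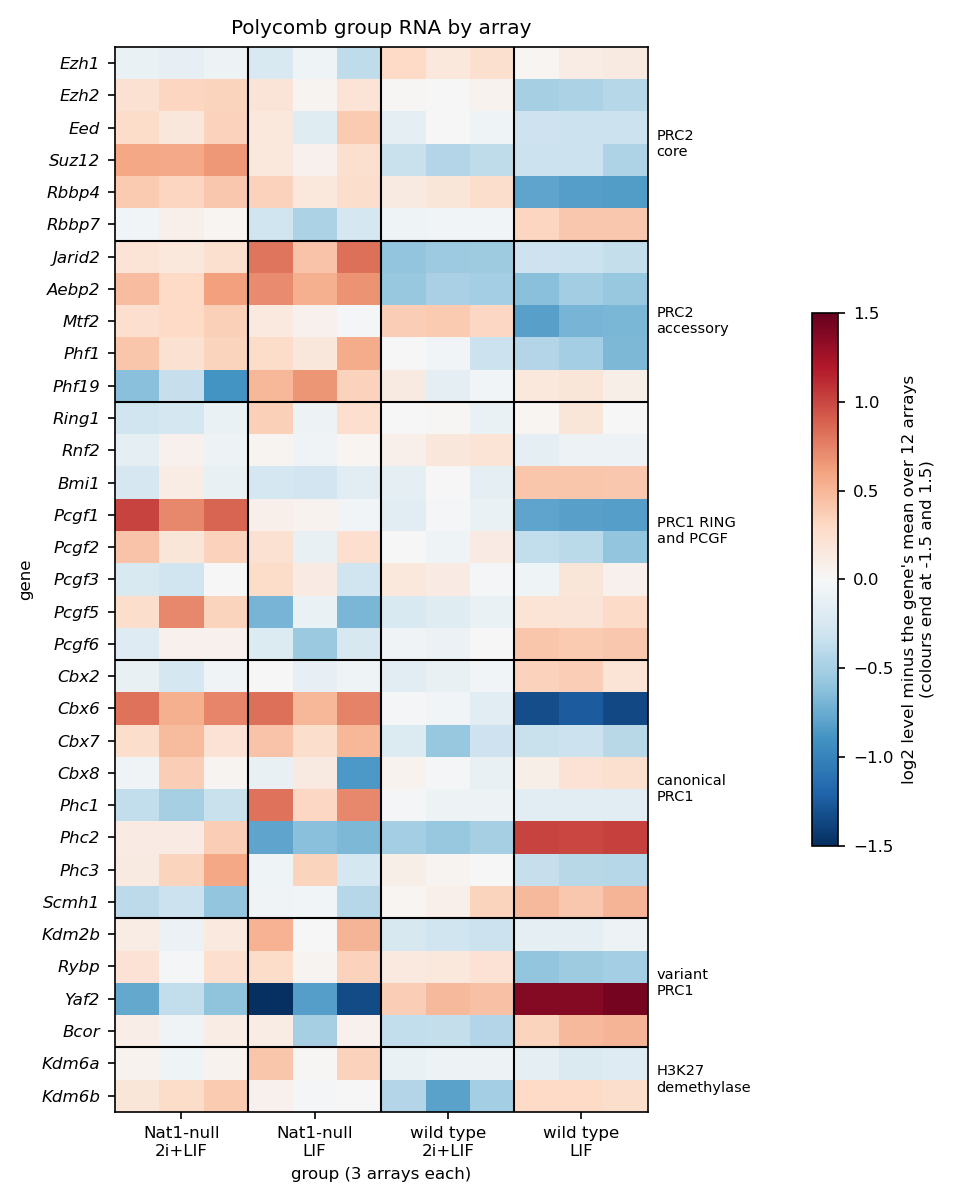
Colour shows the log2 level of each of the 33 members (rows, grouped by role) on each of the 12 arrays (columns), minus the gene's mean over the 12 arrays. The wild-type LIF arrays are lowest for Cbx6 and Rbbp4 and highest for Phc2 and Yaf2.

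In Nat1-null against wild-type cells in LIF, nearly the whole PRC2 set was higher, and PRC1 members were split. Cbx6, a chromodomain subunit of PRC1, rose 4-fold, and Aebp2, an accessory subunit of PRC2, rose 2.32-fold. Yaf2, a variant PRC1 subunit, was 6.24-fold lower and the polyhomeotic subunit Phc2 3.29-fold lower. Of 33 members, 29 were called at adjusted p below 0.05 (limma, Benjamini-Hochberg over all genes), or 87.9%, where 66.8% of all genes tested were called. Higher calls were 18 and lower calls 11, against 33.9% and 32.9% of all genes. In a fit of genes well above background on all arrays, as the members were, 70.7% were called, and 59% of those calls were higher. The same fit called 48.9% with Nat1 loss in 2i+LIF and 67.4% with 2i in wild-type cells. All 11 PRC2 members were called, 9 higher and 2 lower (Ezh1 and Rbbp7), with a median difference of 0.61, whereas the median was 0.03 over 20 PRC1 members, with 8 higher and 8 lower, and 0.02 over all genes. Rnf2, Ring1, Pcgf3 and Cbx8 did not pass the test. At least 2-fold calls were made for 4 members upward (Cbx6, Aebp2, Rbbp4 and Jarid2) and 2 downward (Yaf2 and Phc2), where 26.0% of all genes passed that limit, 9.89% upward and 16.1% downward. In 30 members the 3 mutant arrays did not overlap the 3 wild-type arrays, and this held for 72.8% of all genes. The calls of Phf19, Phc3 and Kdm6b were lost in 7, 5 and 4 of the 12 fits that each left out 1 array, with adjusted p up to 0.12, 0.11 and 0.059.

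In Nat1-null against wild-type cells in 2i+LIF the differences were smaller, and only Yaf2 passed 2-fold. The largest rises were those of Suz12, the scaffold of PRC2, at 1.97-fold, of Aebp2 at 1.97-fold, and of Pcgf1, the PCGF protein of a variant PRC1, at 1.95-fold. Yaf2 was 2.02-fold lower, Phf19 1.52-fold lower and Scmh1 1.5-fold lower. Called members were 20 of 33 (60.6%), where 43.6% of all genes were called, with 14 higher and 6 lower against 21.0% and 22.6% of all genes. PRC2 had 7 members higher and 2 lower (Ezh1 and Phf19), with a median difference of 0.27, and PRC1 had 6 higher and 4 lower, with a median of 0.09. The 2-fold limit was passed by 10.9% of all genes, 3.38% upward and 7.48% downward. Groups did not overlap in 24 members and in 57.3% of all genes. The calls of Eed, Rbbp4, Phc1, Bcor and Rnf2 were lost in 10, 7, 6, 5 and 4 of the 12 fits that each left out 1 array, with adjusted p up to 0.13, 0.12, 0.099, 0.081 and 0.11. Without scaling between arrays Rnf2 turned to 0.02.

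The 2 genotype comparisons share no arrays, but in both the mutant arrays come from a slide that held no wild-type array. A difference between slides could thus recur in both, and its part was not tested. Called higher in both were 10 members, namely Ezh2, Eed, Suz12, Rbbp4, Jarid2, Aebp2, Phf1, Pcgf1, Cbx6 and Cbx7, or 30.3%, where 13.4% of all genes were. Of these, 7 are among the 11 PRC2 members and 3 among the 20 PRC1 members. Ezh1, Yaf2 and Scmh1 were called lower in both, 9.09% of members where 13.8% of all genes were. Called in opposite directions were 6 members (18.2%, against 6.97% of all genes). Phc1 and Phf19 were higher in LIF and lower in 2i+LIF, and Phc2, Pcgf5, Bcor and Kdm6b were lower in LIF and higher in 2i+LIF.

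In wild-type cells, 2i+LIF against LIF raised and lowered similar numbers of members. Cbx6 rose 2.37-fold, Mtf2, a Polycomb-like subunit that recruits PRC2 to CpG islands, rose 2.13-fold, and Rbbp4 rose 2.02-fold. Phc2 was 2.92-fold lower, Yaf2 1.95-fold lower and Kdm6b 1.83-fold lower. Called members were 19 of 33 (57.6%), where 62.2% of all genes were called, with 10 higher and 9 lower against 35.0% and 27.2% of all genes. PRC2 had 4 members higher (Ezh2, Rbbp4, Mtf2 and Phf1) and 1 lower (Rbbp7), and PRC1 had 6 higher and 7 lower. At least 2-fold calls were made for 3 members upward and 1 downward, where 19.2% of all genes passed, 7.17% upward and 12.0% downward. Groups did not overlap in 27 members and in 76.6% of all genes. Without scaling between arrays the median of all genes was -0.50 in place of 0.06, and the rises of Ezh2, Phf1, Rnf2, Pcgf2 and Phc3 turned to falls of small size (-0.07, -0.15, -0.32, -0.09 and -0.13). The calls of Scmh1 and Phc3 were lost in 6 and 4 of the 12 fits that each left out 1 array, with adjusted p up to 0.13 and 0.067.

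In Nat1-null cells, 2i+LIF against LIF moved fewer members, and none of the 3 largest rises in wild-type cells recurred at that size. Pcgf5, the PCGF protein of a variant PRC1, rose 1.91-fold, Phc2 rose 1.87-fold and Pcgf1 rose 1.79-fold. Phf19, a Polycomb-like PRC2 subunit, was 2.18-fold lower and Phc1 2.02-fold lower. Called members were 13 of 33 (39.4%), where 37.1% of all genes were called, with 9 higher and 4 lower against 21.4% and 15.8% of all genes. The higher ones were Suz12, Rbbp7, Mtf2, Pcgf1, Pcgf5, Pcgf6, Phc2, Yaf2 and Kdm6b, and the lower ones Jarid2, Phf19, Ring1 and Phc1. The 2-fold limit was passed by 8.0% of all genes, 3.70% upward and 4.30% downward. Groups did not overlap in 14 members and in 43.6% of all genes. The calls use a spread shared by all 4 groups. Median replicate SDs of members were 0.17 and 0.13 in mutant LIF and 2i+LIF cells, against 0.05 and 0.06 in wild-type cells. A fit of the mutant groups alone called 19.8% of all genes in place of 37.1%. In a fit of genes well above background on all arrays, as the members were, 44.5% were called. The third LIF array and all 2i+LIF arrays of the mutant share a slide row whose negative controls were lower (-16.41 to -10.25, against -7.68 to -7.34 for the other mutant arrays). With these mutant arrays alone, which leave 1 mutant LIF array, the differences were 0.28 for Kdm6b and 0.23 for Pcgf6, in place of 0.27 and 0.32. In fits that each left out 1 array the calls of Kdm6b, Ring1 and Pcgf6 were lost in 9, 4 and 3 of 12, with adjusted p up to 0.13, 0.067 and 0.098.

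**Figure D2:**
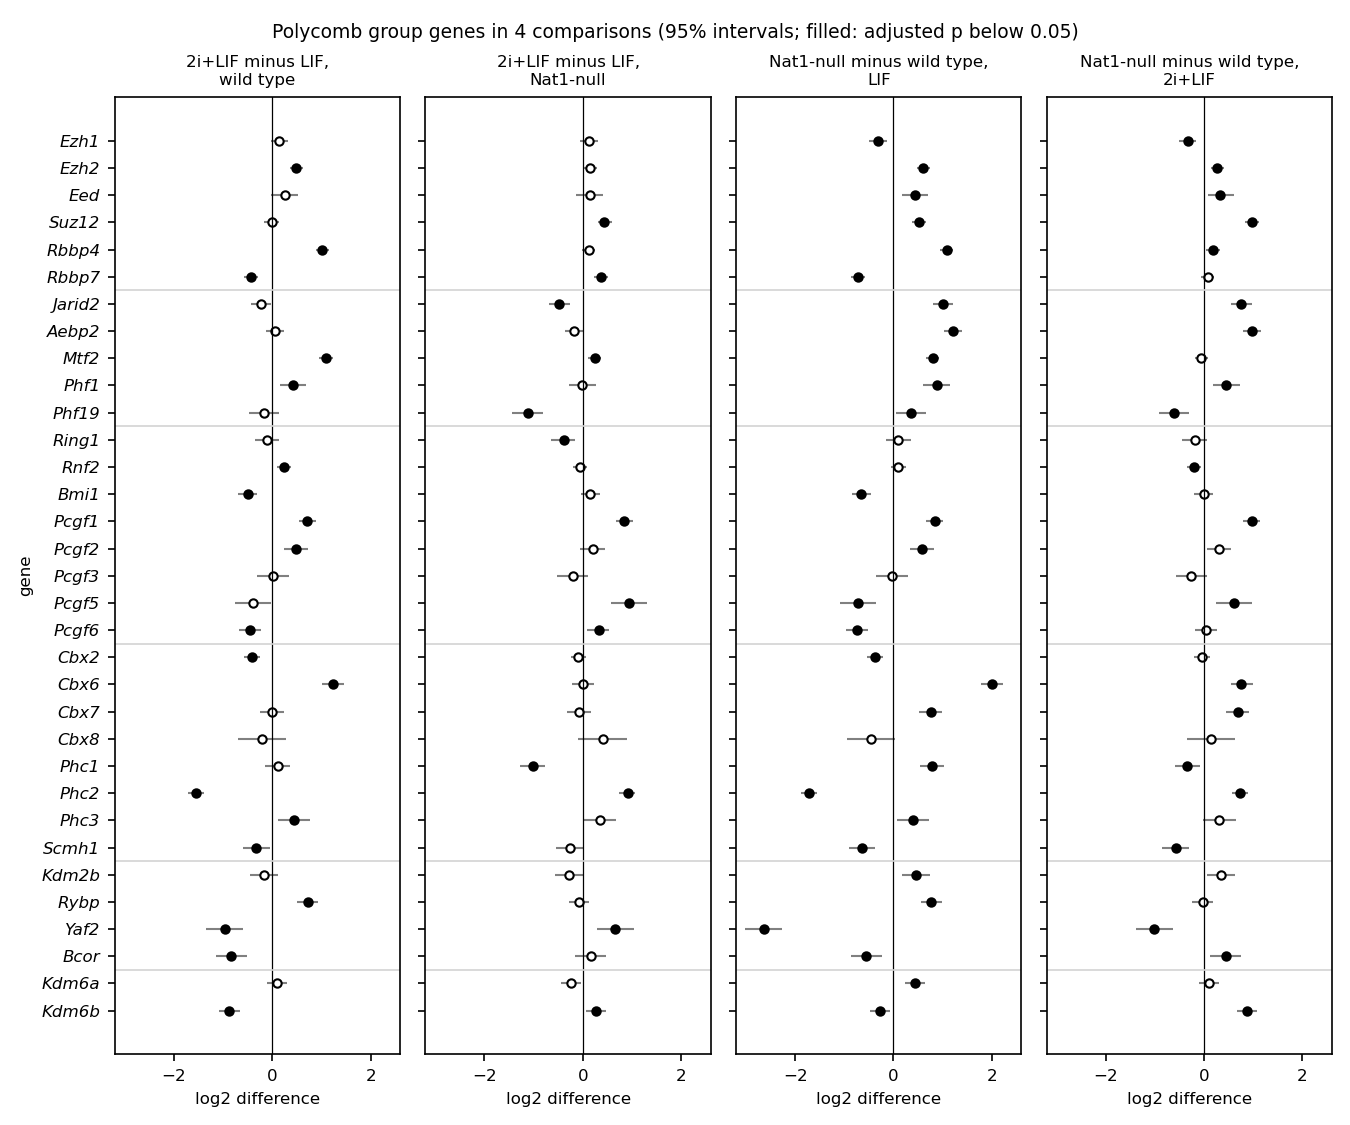
Points are log2 differences of the 33 members (rows, by role) in 4 comparisons (panels), bars are 95% intervals from limma, and filled points have an adjusted p below 0.05. In LIF, the Nat1-null difference is above 0 for 9 of 11 PRC2 members, and Yaf2 and Phc2 lie farthest below 0.

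The core of PRC2 was higher in Nat1-null cells in both media, apart from Ezh1 and Rbbp7. Ezh2, the main methyltransferase of dividing cells, averaged 4.33 ± 0.06 in Nat1-null 2i+LIF cells, 4.18 ± 0.09 in Nat1-null LIF cells, 4.07 ± 0.02 in wild-type 2i+LIF cells and 3.57 ± 0.04 in wild-type LIF cells (SD, n = 3 each). Its Nat1-null difference was 0.61 (SE 0.06, adjusted p = 7.6e-06) in LIF and 0.27 (SE 0.06, adjusted p = 0.0043) in 2i+LIF. Ezh1, the methyltransferase with the weaker activity, went the other way, by -0.32 in LIF (adjusted p = 0.0048) and -0.33 in 2i+LIF (adjusted p = 0.0067). Eed, which binds the PRC2 mark and stimulates the enzyme, differed by 0.44 in LIF (adjusted p = 0.0081) and 0.33 in 2i+LIF (adjusted p = 0.046).

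Suz12 levels on single arrays were 5.02, 5.005 and 5.09 in Nat1-null 2i+LIF cells, 4.60, 4.50 and 4.68 in Nat1-null LIF cells, 4.11, 4.003 and 4.07 in wild-type 2i+LIF cells, and 4.12, 4.12 and 3.98 in wild-type LIF cells. Every mutant array was above every wild-type array, and the wild-type media overlapped. The Nat1-null difference was 0.98 in 2i+LIF (SE 0.07, adjusted p = 3.4e-06) and 0.52 in LIF (SE 0.07, adjusted p = 5.9e-05). The effect of 2i was 0.44 in Nat1-null cells (adjusted p = 0.00064) and -0.01 in wild-type cells (adjusted p = 0.86).

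Rbbp4 and Rbbp7 encode near-identical histone-binding subunits that other complexes also use, and their RNAs moved in opposite directions in the comparisons against wild-type LIF cells. Rbbp4 levels were 6.77, 6.71 and 6.78 in Nat1-null 2i+LIF cells, 6.73, 6.53 and 6.65 in Nat1-null LIF cells, 6.51, 6.56 and 6.64 in wild-type 2i+LIF cells, and 5.58, 5.55 and 5.54 in wild-type LIF cells. The wild-type LIF arrays alone stood low. Rbbp4 rose by 1.08 in Nat1-null LIF cells (SE 0.06, adjusted p = 1.9e-07) and by 1.01 in wild-type 2i+LIF cells (SE 0.06, adjusted p = 5.4e-07), both against wild-type LIF cells, which these comparisons share. A second Rbbp4 probe gave larger differences in the same direction, 2.85 and 1.57. Rbbp7 averaged 6.10 ± 0.06 in Nat1-null 2i+LIF cells, 5.74 ± 0.11 in Nat1-null LIF cells, 6.03 ± 0.02 in wild-type 2i+LIF cells and 6.46 ± 0.05 in wild-type LIF cells (SD, n = 3 each). It fell by 0.72 with Nat1 loss in LIF (adjusted p = 4.3e-06) and by 0.43 with 2i in wild-type cells (adjusted p = 0.00023), and its second probe gave -0.85 and -0.65. With 2i in Nat1-null cells Rbbp7 rose by 0.36 (adjusted p = 0.0017) and Rbbp4 gave 0.12 (adjusted p = 0.16). With Nat1 loss in 2i+LIF Rbbp4 rose by 0.18 (adjusted p = 0.036) and Rbbp7 gave 0.07 (95% interval -0.07 to 0.21), so the signs were alike in these comparisons.

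Among the accessory subunits of PRC2, Jarid2 and Aebp2, which together define one form of the complex, were higher in mutant cells, and the Polycomb-like subunits of the other form diverged. Aebp2 levels were 3.04, 2.88 and 3.19 in Nat1-null 2i+LIF cells, 3.28, 3.11 and 3.25 in Nat1-null LIF cells, 2.00, 2.09 and 2.07 in wild-type 2i+LIF cells, and 1.95, 2.05 and 2.01 in wild-type LIF cells. Mutant and wild-type arrays were separated by a wide gap, and media overlapped within a genotype. The Nat1-null difference was 1.21 in LIF (SE 0.08, adjusted p = 6.3e-07) and 0.98 in 2i+LIF (SE 0.08, adjusted p = 1.2e-05). Jarid2, a DNA-binding relative of histone demethylases, had levels of 4.60, 4.56 and 4.64 in Nat1-null 2i+LIF cells, 5.20, 4.83 and 5.22 in Nat1-null LIF cells, 3.81, 3.85 and 3.86 in wild-type 2i+LIF cells, and 4.09, 4.08 and 4.04 in wild-type LIF cells. The 4 groups did not overlap, with mutant LIF arrays highest. Jarid2 rose by 1.01 with Nat1 loss in LIF (SE 0.09, adjusted p = 6.4e-06) and by 0.76 in 2i+LIF (SE 0.09, adjusted p = 0.00014), and fell by 0.48 with 2i in Nat1-null cells (adjusted p = 0.0031).

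Mtf2 levels were 5.98, 6.02 and 6.09 in Nat1-null 2i+LIF cells, 5.87, 5.79 and 5.71 in Nat1-null LIF cells, 6.10, 6.11 and 6.04 in wild-type 2i+LIF cells, and 4.91, 5.02 and 5.04 in wild-type LIF cells. As for Rbbp4, the wild-type LIF arrays alone stood low, with 2i in wild-type cells adding 1.09 (SE 0.06, adjusted p = 3.6e-07) and Nat1 loss in LIF adding 0.80 (SE 0.06, adjusted p = 1.6e-06). The rise of 0.24 with 2i in Nat1-null cells (adjusted p = 0.013) was not called with quantile normalization (0.11, adjusted p = 0.24), and a second, dim Mtf2 probe with an SE of 0.59 was called in no comparison. Phf1, another Polycomb-like subunit, rose by 0.88 (SE 0.12, adjusted p = 0.00011) with Nat1 loss in LIF and by 0.45 (SE 0.12, adjusted p = 0.013) in 2i+LIF. Phf19 levels were -1.30, -1.005 and -1.56 in Nat1-null 2i+LIF cells, -0.16, 0.00 and -0.32 in Nat1-null LIF cells, -0.53, -0.81 and -0.70 in wild-type 2i+LIF cells, and -0.51, -0.48 and -0.57 in wild-type LIF cells. The Nat1-null 2i+LIF arrays were the lowest and the Nat1-null LIF arrays the highest. Phf19 fell by 1.12 with 2i in Nat1-null cells (SE 0.14, adjusted p = 0.00018), and in wild-type cells the difference was -0.16 (95% interval -0.47 to 0.14).

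The ligases of PRC1 varied little, and the PCGF proteins, which decide which PRC1 assembles, varied more. Ring1 had a called difference in 1 comparison, -0.39 with 2i in Nat1-null cells (adjusted p = 0.019). Rnf2, the main ligase of stem cells, differed by 0.24 with 2i in wild-type cells (adjusted p = 0.0082; -0.32 without scaling between arrays) and by -0.20 with Nat1 loss in 2i+LIF (adjusted p = 0.03; 0.02 without scaling). Bmi1, a PCGF protein of canonical PRC1, fell by 0.65 with Nat1 loss in LIF (adjusted p = 8.7e-05) and by 0.50 with 2i in wild-type cells (adjusted p = 0.00067). Pcgf2, which takes the same place as Bmi1, rose by 0.58 (adjusted p = 0.0011) and 0.48 (adjusted p = 0.0042; -0.09 without scaling) in the same comparisons.

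Among the PCGF proteins of variant complexes, Pcgf1 averaged 2.00 ± 0.15 in Nat1-null 2i+LIF cells, 1.16 ± 0.06 in Nat1-null LIF cells, 1.04 ± 0.07 in wild-type 2i+LIF cells and 0.32 ± 0.015 in wild-type LIF cells (SD, n = 3 each). It was called higher in all 4 pairwise comparisons, by 0.71 with 2i in wild-type cells, 0.84 with Nat1 loss in LIF, 0.97 with Nat1 loss in 2i+LIF and 0.84 with 2i in Nat1-null cells (adjusted p from 5e-06 to 2.7e-05), and its 2i difference did not differ detectably between genotypes (0.13, 95% interval -0.11 to 0.37). Pcgf5 levels were 3.17, 3.62 and 3.24 in Nat1-null 2i+LIF cells, 2.21, 2.80 and 2.21 in Nat1-null LIF cells, 2.68, 2.72 and 2.80 in wild-type 2i+LIF cells, and 3.11, 3.095 and 3.19 in wild-type LIF cells. The second mutant array stood above its fellows in both media. Pcgf5 rose by 0.94 with 2i in Nat1-null cells (SE 0.16, adjusted p = 0.0016), was lower by 0.72 with Nat1 loss in LIF (a difference of -0.72, adjusted p = 0.0028) and higher by 0.61 in 2i+LIF (adjusted p = 0.013). Pcgf6, of the complex with Mga and Max, fell by 0.74 with Nat1 loss in LIF (adjusted p = 9.9e-05) and by 0.45 with 2i in wild-type cells (adjusted p = 0.003). Pcgf3 was called in no comparison, its differences lying between -0.26 and 0.02.

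Among the chromodomain subunits of canonical PRC1, Cbx6 had the widest range of group means. Its levels were 3.63, 3.36 and 3.56 in Nat1-null 2i+LIF cells, 3.65, 3.32 and 3.56 in Nat1-null LIF cells, 2.81, 2.78 and 2.67 in wild-type 2i+LIF cells, and 1.49, 1.57 and 1.47 in wild-type LIF cells. The mutant media overlapped, and the wild-type groups were each separate below them. Cbx6 rose by 2.00 with Nat1 loss in LIF (SE 0.10, adjusted p = 7.4e-08), by 1.24 with 2i in wild-type cells (SE 0.10, adjusted p = 3.5e-06) and by 0.76 with Nat1 loss in 2i+LIF (SE 0.10, adjusted p = 0.00018), and 2i in Nat1-null cells gave 0.01 (95% interval -0.22 to 0.23). A second, dimmer Cbx6 probe gave 1.58, 0.66, 0.88 and -0.03 in these comparisons, and the dimmest probe gave 0.62, 0.14, 0.14 and -0.34, called in the LIF comparison alone. Cbx7, the main CBX protein of undifferentiated stem cells, rose by 0.76 (adjusted p = 0.00013) with Nat1 loss in LIF and by 0.68 (adjusted p = 0.00061) in 2i+LIF. Cbx2, a CBX protein that rises as stem cells differentiate, fell by 0.37 with Nat1 loss in LIF (adjusted p = 0.0012) and by 0.41 with 2i in wild-type cells (adjusted p = 0.00069). Cbx8 was called in no comparison, with an SE of 0.22, the highest of any member.

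The polyhomeotic subunits Phc1 and Phc2 responded to 2i in a way that depended on genotype. Phc2 levels were 3.16, 3.16 and 3.41 in Nat1-null 2i+LIF cells, 2.25, 2.41 and 2.36 in Nat1-null LIF cells, 2.52, 2.46 and 2.54 in wild-type 2i+LIF cells, and 4.05, 4.04 and 4.06 in wild-type LIF cells. No 2 groups overlapped. In wild-type cells 2i lowered it (-1.54, SE 0.07, adjusted p = 1.4e-07), in Nat1-null cells 2i raised it (0.91, SE 0.07, adjusted p = 1.5e-05), and Nat1 loss gave -1.72 in LIF (SE 0.07, adjusted p = 3.2e-08) and 0.73 in 2i+LIF (SE 0.07, adjusted p = 4e-05). Phc1, the polyhomeotic protein most typical of stem cells, had levels of 2.86, 2.73 and 2.90 in Nat1-null 2i+LIF cells, 4.04, 3.54 and 3.95 in Nat1-null LIF cells, 3.21, 3.15 and 3.15 in wild-type 2i+LIF cells, and 3.07, 3.07 and 3.05 in wild-type LIF cells. The Nat1-null LIF arrays stood above all others and the Nat1-null 2i+LIF arrays below. Phc1 fell by 1.01 with 2i in Nat1-null cells (SE 0.11, adjusted p = 0.00011), and the wild-type difference was 0.11 (95% interval -0.15 to 0.36). Phc3 differed by 0.44 with 2i in wild-type cells (adjusted p = 0.025; -0.13 without scaling) and by 0.40 with Nat1 loss in LIF (adjusted p = 0.036). Scmh1, a partner of the polyhomeotic proteins, was lower with Nat1 loss in LIF (-0.64, adjusted p = 0.001) and in 2i+LIF (-0.58, adjusted p = 0.0036).

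**Figure D3:**
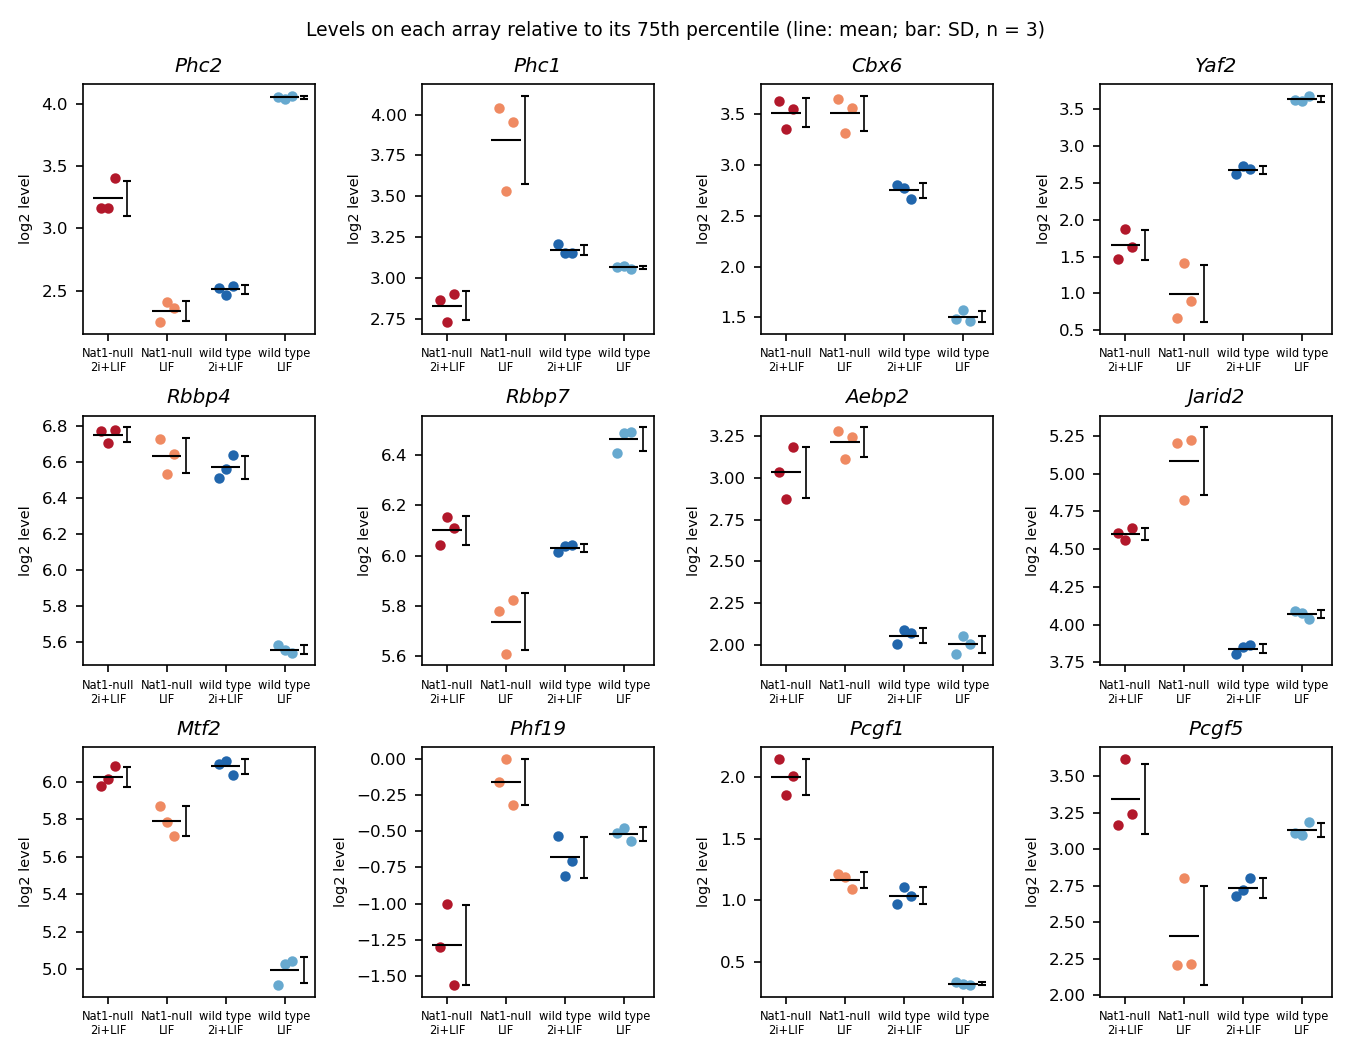
Points are log2 levels on single arrays for 12 members, with the group mean (line) and SD (bar, n = 3), each panel on its own axis. Phc2 has no overlap between any groups, while Cbx6, Rbbp4 and Mtf2 are lowest in wild-type LIF cells.

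The variant subunits Yaf2 and Rybp are close relatives that bind the ligase at the same place. Yaf2 levels were 1.47, 1.87 and 1.64 in Nat1-null 2i+LIF cells, 0.66, 1.42 and 0.90 in Nat1-null LIF cells, 2.61, 2.72 and 2.68 in wild-type 2i+LIF cells, and 3.62, 3.61 and 3.68 in wild-type LIF cells. All groups were separate, in rising order from Nat1-null LIF to wild-type LIF cells. Nat1 loss gave -2.64 in LIF (SE 0.17, adjusted p = 4.5e-07) and -1.01 in 2i+LIF (SE 0.17, adjusted p = 0.00091), while 2i gave -0.96 in wild-type cells (SE 0.17, adjusted p = 0.00068) and 0.66 in Nat1-null cells (SE 0.17, adjusted p = 0.012). A second Yaf2 probe gave -1.94, -1.19, -0.06 and 0.69, and over the mean of both probes the 2i difference in wild-type cells was -0.51 (adjusted p = 0.053). Rybp rose by 0.77 with Nat1 loss in LIF (adjusted p = 4.3e-05) and by 0.72 with 2i in wild-type cells (adjusted p = 9e-05), and gave -0.03 and -0.08 in the other comparisons.

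Kdm2b brings the Pcgf1 complex to unmethylated CpG islands, and Bcor is a scaffold of the same complex. Kdm2b was higher with Nat1 loss in LIF (0.46, adjusted p = 0.0091) and did not pass the test in the other 3 comparisons. Bcor was lower with 2i in wild-type cells (-0.83, adjusted p = 0.00057) and with Nat1 loss in LIF (-0.56, adjusted p = 0.0059), and higher with Nat1 loss in 2i+LIF (0.44, adjusted p = 0.03). A second, dim Bcor probe gave -1.99, -1.78 and 0.46. Of the demethylases, Kdm6b fell by 0.87 with 2i in wild-type cells (SE 0.09, adjusted p = 2.4e-05) and rose by 0.87 with Nat1 loss in 2i+LIF (SE 0.09, adjusted p = 5.7e-05), and Kdm6a, the X-linked one, rose by 0.44 with Nat1 loss in LIF (SE 0.09, adjusted p = 0.0018).

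The response to 2i itself differed between genotypes for 18 of 33 members (54.5%), by the interaction term of the same limma fit, where 49.7% of all genes were called. In a fit of genes well above background on all arrays, as the members were, 54.4% were called, so the share of members was that of such genes. In 10 members the Nat1-null difference was the higher and in 8 the lower, against 23.6% and 26.1% of all genes. Phc2 had the largest interaction, 2.45 (SE 0.10, adjusted p = 1.5e-07), followed by Yaf2 at 1.63 (SE 0.24, adjusted p = 0.00034), Pcgf5 at 1.33 (SE 0.23, adjusted p = 0.00094) and Cbx6 at -1.24 (SE 0.14, adjusted p = 6.3e-05). Kdm6b followed at 1.14 (SE 0.13, adjusted p = 6.9e-05) and Phc1 at -1.12 (SE 0.16, adjusted p = 0.00029). Interactions of at least 2-fold were called for 6 members, 4 positive and 2 negative, and 20.3% of all genes passed that limit, 11.8% positive and 8.51% negative. Only Mtf2 and Pcgf1 were called higher with 2i in both genotypes, 6.06% of members where 10.8% of all genes were. No member was called lower in both, where 5.97% of all genes were. Rbbp7, Pcgf6, Phc2, Yaf2 and Kdm6b were called lower in wild-type and higher in Nat1-null cells. These opposite calls are 15.2% of members and 9.92% of all genes. Among them, the Nat1-null calls of Kdm6b and Pcgf6 were lost in 9 and 3 of the 12 fits that each left out 1 array. A second Yaf2 probe gave -0.06 in wild-type cells (adjusted p = 0.84). Of 33 members, 16 had 2i differences of the same sign in the 2 genotypes, with Pearson's r = -0.18 and Spearman's rho = -0.17 across members, against r = 0.05 across all genes, a description in which the members are not independent. The interaction rests on slides in the same way as the wild-type medium comparison does, and 14 in place of 8 members were called lower without the second Nat1-null LIF array.

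**Figure D4:**
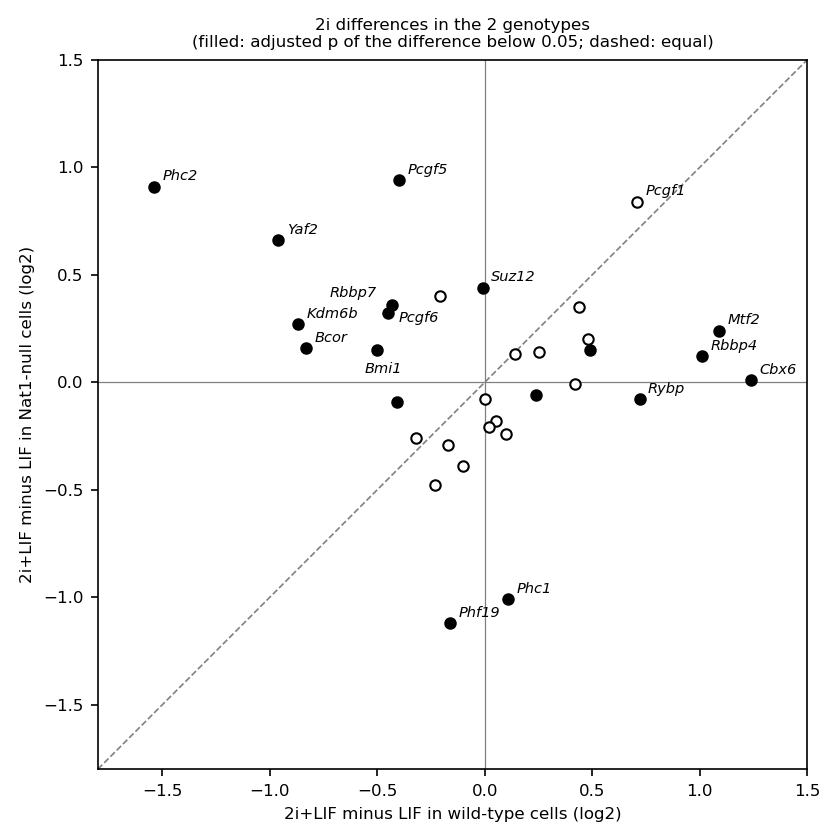
Each point is a member, with the log2 difference between 2i+LIF and LIF in wild-type cells on the horizontal axis and in Nat1-null cells on the vertical axis. Filled points have a called interaction, and the dashed line marks equal differences. Phc2, Yaf2 and Kdm6b lie left of 0 and above it, while Cbx6, Mtf2 and Rbbp4 lie far right at small heights.

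The balance of related members was followed as the log2 ratio of their signals on the same array, relative to its mean in wild-type LIF cells, with no test. These ratios do not depend on scaling between arrays. Yaf2 over Rybp stood at -2.67 ± 0.35 in Nat1-null 2i+LIF cells, -3.41 ± 0.53 in Nat1-null LIF cells and -1.68 ± 0.05 in wild-type 2i+LIF cells (SD, n = 3 each, as below). Phc2 over Phc1 stood at -0.58 ± 0.11, -2.50 ± 0.34 and -1.65 ± 0.04 in the same order of groups. Rbbp4 over Rbbp7 stood at 1.56 ± 0.09, 1.80 ± 0.06 and 1.45 ± 0.05. Thus the 3 groups lay on the same side of wild-type LIF cells for each of these pairs, outside its own spread of 0.02 to 0.07.

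Pcgf2 over Bmi1 was 1.27 ± 0.31 in Nat1-null 2i+LIF cells, 1.23 ± 0.17 in Nat1-null LIF cells and 0.97 ± 0.17 in wild-type 2i+LIF cells. Ezh1 over Ezh2 was -0.95 ± 0.06, -0.93 ± 0.24 and -0.35 ± 0.07 in that order. Cbx2 over Cbx7 was -1.13 ± 0.24, -1.12 ± 0.09 and -0.41 ± 0.21. For Ezh1 over Ezh2 and Cbx2 over Cbx7 both mutant groups lay below wild-type 2i+LIF cells by more than 1 SD. With normexp background correction Cbx2 over Cbx7 was -1.01, -0.84 and -0.68 in that order, so Nat1-null LIF and wild-type 2i+LIF cells lay closer together. For Pcgf2 over Bmi1 the mutant groups lay within 1 SD of each other, and Nat1-null LIF cells were above wild-type 2i+LIF cells by more than 1 SD of either. Phf19 over Mtf2 was -1.8 ± 0.31, -0.44 ± 0.14 and -1.25 ± 0.15, and Kdm6b over Kdm6a was -0.20 ± 0.12, -0.72 ± 0.18 and -0.97 ± 0.20. Jarid2 over Aebp2 was -0.50 ± 0.11, -0.20 ± 0.14 and -0.28 ± 0.02. Ring1 over Rnf2 was -0.34 ± 0.15, 0.00 ± 0.18 and -0.35 ± 0.12, and this pair moved to -0.03, 0.17 and -0.18 with normexp background correction.

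**Figure D5:**
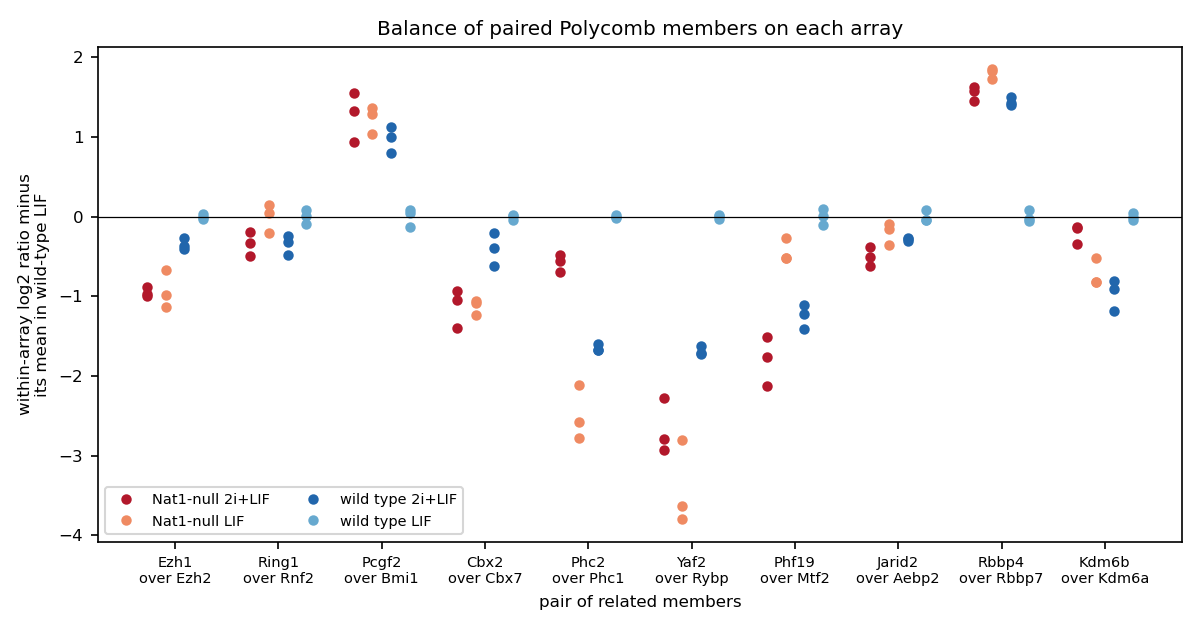
Points are within-array log2 ratios of 10 pairs of related members on each of the 12 arrays, minus the mean ratio in wild-type LIF cells. Yaf2 over Rybp and Phc2 over Phc1 lie below 0, and Rbbp4 over Rbbp7 and Pcgf2 over Bmi1 above 0, in the other 3 groups.

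Genes that work beside the members were read from lists of general knowledge. Their counts stand against the share of all genes called higher and lower, which was 33.9% and 32.9% with Nat1 loss in LIF, 21.0% and 22.6% with Nat1 loss in 2i+LIF, 35.0% and 27.2% with 2i in wild-type cells, and 21.4% and 15.8% with 2i in Nat1-null cells. Of 34 Polycomb-associated genes (partners of variant PRC1, of the histone H2A deubiquitinase and of PRC2), 31 were tested. With Nat1 loss 16 were higher and 10 lower in LIF, and 10 higher and 3 lower in 2i+LIF. With 2i, 12 were higher and 8 lower in wild-type cells, and 5 higher and 5 lower in Nat1-null cells. Their medians were 0.26, 0.18, 0.02 and 0.10, against 0.02, -0.01, 0.06 and 0.05 over all genes. Sfmbt2, an imprinted Polycomb protein needed in the placenta, fell by 3.67 with Nat1 loss in LIF (SE 0.13, adjusted p = 8.5e-09) and by 2.88 with 2i in wild-type cells (SE 0.13, adjusted p = 8.1e-08), and rose by 0.99 with 2i in Nat1-null cells (adjusted p = 0.00025). Ezhip, an inhibitor of PRC2, fell by 2.26 with Nat1 loss in LIF (SE 0.27, adjusted p = 3.6e-05) and by 2.75 in 2i+LIF (SE 0.27, adjusted p = 3.1e-05). Wdr5, a subunit of variant PRC1 and of the COMPASS methyltransferases, rose by 1.5 with Nat1 loss in LIF (adjusted p = 2.2e-06).

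COMPASS and trithorax genes, which oppose Polycomb, were tested for 21 of 22 listed. With Nat1 loss in LIF 14 were higher and 2 lower (median 0.36), where 33.9% and 32.9% of all genes were (median 0.02). With Nat1 loss in 2i+LIF 11 were higher and 2 lower (median 0.27), where 21.0% and 22.6% of all genes were (median -0.01). With 2i, 10 were higher and 2 lower in wild-type cells (median 0.22), where 35.0% and 27.2% of all genes were (median 0.06), and 2 higher and 4 lower in Nat1-null cells (median -0.09), where 21.4% and 15.8% were (median 0.05). Rbbp5, a core COMPASS subunit, rose by 1.34 with Nat1 loss in LIF (SE 0.07, adjusted p = 1.8e-07), and Ash2l, another core subunit, fell by 0.70 in LIF (adjusted p = 9e-06) and by 0.99 in 2i+LIF (adjusted p = 4e-06).

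Developmental genes that carry Polycomb marks in stem cells were represented by 34 bivalent targets, of which 27 were tested, and no histone mark was measured here. The shares of all genes called higher and lower, for this list and the next, were 33.9% and 32.9% with Nat1 loss in LIF (median 0.02), 21.0% and 22.6% with Nat1 loss in 2i+LIF (median -0.01), 35.0% and 27.2% with 2i in wild-type cells (median 0.06), and 21.4% and 15.8% with 2i in Nat1-null cells (median 0.05). With Nat1 loss 7 were higher and 14 lower in LIF (median -0.31), and 10 higher and 5 lower in 2i+LIF (median 0.13). With 2i, 7 were higher and 15 lower in wild-type cells (median -0.71), and 11 higher and 6 lower in Nat1-null cells (median 0.34). Tbx3, which also works in naive pluripotency, rose by 3.27 with Nat1 loss in LIF (adjusted p = 8.5e-09), and Gata3, a trophoblast factor also on the marker list above, fell by 4.96 (adjusted p = 2.7e-08). Of 22 proliferation genes, 21 were tested. With Nat1 loss 16 were higher and 1 lower in LIF (median 0.42), and 7 higher and 1 lower in 2i+LIF (median 0.10). With 2i, 17 were higher and 0 lower in wild-type cells (limma, median 0.42), and 6 higher and 3 lower in Nat1-null cells (median 0.11). E2f2, an activator of S-phase genes, rose by 2.40 with Nat1 loss in LIF (SE 0.11, adjusted p = 3.6e-08). The part of proliferation in the Polycomb differences was not tested.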

How the data were processed

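Gene expression was measured on 12 arrays. Agilent Feature Extraction 10.7.3.1 wrote the intensity of each spot, per the file headers, subtracting background and scaling nothing between arrays, on a design of build mm9. The authors also deposited a table of log2 values, and on every array it has a 75th percentile of 0, a median between -3.867 and -3.588 and a correlation of 1 with the scanner signals.

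Main values were log2 processed signals without control and outlier spots, as means per probe, less the array's 75th percentile. RefSeq accessions (GRCm38.p6) named 27656 of 55681 probes. Of 54229 probes with values throughout, 33293 exceeded background in every replicate of some group. The brightest probe per gene was kept, giving 24463 genes, and of the 12 members with several tested probes none had opposite calls. limma 3.58.1 (R 4.3.3) fitted 4 group means without a block, with 5 two-sided contrasts and p adjusted over all genes. Folds are powers of log2 differences. Array number sets the precision. The fit was tested on simulated data. Tables and plots used pandas 2.3.3, matplotlib 3.10.9 and numpy 2.4.6 under Python 3.11.15.

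Members and lists were chosen with earlier results of these data known. Every member and Eif4g2 are named, with single-array values for members called at a log2 difference of at least 1 and for the 2 largest rises and falls per comparison. Other lists contribute at most 2 called rises and 2 falls. Alternatives covered background correction, scaling, the deposited table, filters, probe choice, array weights, a replicate block, pairwise fits and leaving out arrays.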

Additional observations from a re-analysis of the deposited data

Results flagged for a closer look

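The response to 2i differed between genotypes in 18 of 33 members (54.5%), where 49.7% of all genes were called, by the interaction term of limma, a test of the difference itself, given as the log2 2i difference in Nat1-null cells minus that in wild-type cells. In a fit of genes well above background on all arrays, as the members were, the share called was 54.4%. The count of members is thus at the share of such genes and does not set the members apart. Positive values were 2.45 for Phc2, 1.63 for Yaf2, 1.33 for Pcgf5, 1.14 for Kdm6b, 1.00 for Bcor, 0.79 for Rbbp7, 0.77 for Pcgf6, 0.65 for Bmi1, 0.46 for Suz12 and 0.32 for Cbx2. Negative values were -1.24 for Cbx6, -1.12 for Phc1, -0.96 for Phf19, -0.90 for Rbbp4, -0.85 for Mtf2, -0.80 for Rybp, -0.34 for Ezh2 and -0.30 for Rnf2. Adjusted p-values ran from 1.5e-07 for Phc2 to 0.024 for Cbx2. Without scaling between arrays Ezh2 and Rnf2 changed sign, to 0.03 and 0.07. The other tested probes of these members gave 2.24 for Bcor, 1.3 for Pcgf5, 0.90 for Rbbp7, 0.38 for Bmi1, -1.73 for Rbbp4 and -0.69 for Cbx6 with a call. Not called were 0.76 for Yaf2 (adjusted p = 0.1), -0.48 for the dimmest Cbx6 probe (adjusted p = 0.053) and -0.04 for Mtf2 (adjusted p = 0.97). With 3 arrays a group, single arrays were not tested as standing apart from their group.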

How the results depend on the processing

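Of 99 called member differences, 77 kept direction and call without scaling between arrays, 14 lost the call and 8 turned sign, whereas quantile normalization, normexp, the deposited table, array weights, the mean of probes, the replicate block and a stricter brightness filter lost 0 to 4 and turned none. Dropping the filter on dim probes, still with the brightest probe per gene, lost 11 and turned none. Fits of only the groups of a comparison lost 8 and turned none. For the interaction those are all 4 groups, so its 18 calls could not be lost there. The turned values, all without scaling, were -0.07 for Ezh2, -0.15 for Phf1, -0.32 for Rnf2, -0.09 for Pcgf2 and -0.13 for Phc3 with 2i in wild-type cells, 0.02 for Rnf2 with Nat1 loss in 2i+LIF, and 0.03 for Ezh2 and 0.07 for Rnf2 in the interaction. There the medians of all genes were -0.50, -0.14, 0.22, -0.14 and 0.34 for 2i in wild-type cells, Nat1 loss in LIF and in 2i+LIF, 2i in Nat1-null cells and the interaction, and higher calls made up 12.8%, 39.3%, 75.9%, 22.2% and 78.5% of calls, against 56.2%, 50.7%, 48.1%, 57.5% and 47.4% with scaling. With quantile normalization that share was 47.5% for 2i in Nat1-null cells. Without scaling, 3 members were called higher and 24 lower with 2i in wild-type cells, 2 lower with Nat1 loss in 2i+LIF, and 4 higher and 12 lower with 2i in Nat1-null cells, where the fit of those groups alone called 5 higher.

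Fits that each left out 1 array called 9 to 11 members higher and 8 to 12 lower with 2i in wild-type cells, 16 to 18 and 10 to 11 with Nat1 loss in LIF, 11 to 17 and 4 to 6 in 2i+LIF, 7 to 10 and 3 to 6 with 2i in Nat1-null cells, and 9 to 11 and 7 to 14 in the interaction. Residuals of same-numbered arrays correlated over 0.1 in 1 of 18 pairs (-0.069 to 0.301). That pair was array 2 of the mutant in 2i+LIF and in LIF (0.301). Between the same mutant groups array 1 gave 0.043 and array 3 gave 0.011. Whether same-numbered mutant arrays share a clone or culture was not tested. A replicate block called 10 and 9, 17 and 11, 16 and 6, 8 and 4, and 10 and 9 members higher and lower. A fit with the mutant arrays of 1 slide row alone, a choice made after seeing the data, kept 1 mutant LIF array, so no counts of calls are given for it.

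When probes of a gene were averaged, the ratio of Rbbp4 over Rbbp7 moved to 2.42, 2.75 and 1.84 in Nat1-null 2i+LIF, Nat1-null LIF and wild-type 2i+LIF cells, and Phf19 over Mtf2 to -2.25, -0.75 and -0.98. Yaf2 over Rybp moved to -2.31 in Nat1-null 2i+LIF and -1.23 in wild-type 2i+LIF cells, Ezh1 over Ezh2 to -1.02 in Nat1-null 2i+LIF cells and Jarid2 over Aebp2 to -0.32 in wild-type 2i+LIF cells. With normexp, Rbbp4 over Rbbp7 moved to 1.74, 1.92 and 1.56 in the same 3 groups, and Ezh1 over Ezh2 to -1.13 in Nat1-null 2i+LIF cells. Ring1 over Rnf2 moved to -0.03 in Nat1-null 2i+LIF and -0.18 in wild-type 2i+LIF cells, Phc2 over Phc1 to -0.43 and -1.53 in those groups, and Cbx2 over Cbx7 to -0.84 in Nat1-null LIF and -0.68 in wild-type 2i+LIF cells. The cause of these changes was not tested.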
